A study of Mus musculus with 9 samples.

Results

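The Pax, Gata, Sox and Tbx genes encode 4 families of transcription factors, and 47 of them, chosen by gene symbol, were examined here among 21938 protein-coding genes of the autosomes, X and Y. There were 9 Pax, 6 Gata, 19 Sox and 13 Tbx genes, and all 47 were found in the gene annotation. The chromatin was that of primary oviductal muscle cells, taken on day 2 of pregnancy from mice of genotype WT. The mice were 8 to 12 weeks old and had been mated with a stud male. No strain, genetic change or other agent was given for them. Oviducts were digested with enzymes, filtered and plated for some hours, so the cells were selected by filtering and attachment and not by a marker. Each library was made from 50000 cells by ChIC-Seq, in which an antibody carries a nuclease to its target and the DNA cut there is sequenced. The labels gave 3 samples for H3K27ac, 3 for H3K4me1 and 3 for control IgG. Each sample of a mark had 1 list of peaks called against IgG, and each mark had 1 further list called on its 3 samples pooled, giving 8 lists. Whether replicates came from separate mice was not given.

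Acetylation of histone H3 at lysine 27 (H3K27ac) is found at active promoters and enhancers, and monomethylation at lysine 4 (H3K4me1) at enhancers and along the flanks of promoters. Members of the 4 families bind DNA through a paired domain (Pax), GATA zinc fingers (Gata), an HMG box (Sox) or a T-box (Tbx), and most are known as regulators of cell identity in the embryo. In the female tract, PAX8 marks secretory cells of the oviduct epithelium, and GATA2 is needed for the response of the uterus to progesterone. SOX17 acts in the uterine epithelium and in endothelium. TBX3 is a repressor that acts in limb, heart and mammary gland development, and TBX18 marks mesenchyme that gives rise to smooth muscle, for example around the ureter.

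A gene was taken to carry a mark when at least 2 of the 3 replicate lists had a peak, by at least 1 bp, within 1 kb of any annotated start of the gene. Peaks were weak and permissive. The file headers gave 40551842 to 78891920 fragments per replicate against 3110985 to 3713369 IgG fragments, with the larger library scaled down, and lists held 93684 to 152889 peaks. The strength of a peak is given here as its mean coverage relative to the mean of the genome. Its lowest value in the replicate lists was 4.03 to 4.94. Of 8 smooth muscle markers fixed for the label, 4 (Acta2, Tagln, Des and Smtn) carried H3K27ac, a mark called at 55.0% of all protein-coding genes, and Myh11, Myocd and Lmod1 carried neither mark. All 8 fibroblast markers carried H3K27ac, as did 4 of 8 for endothelium, 3 of 8 for blood, 3 of 8 for Schwann cells, 1 of 8 for epithelium and 1 of 8 for mesothelium. The part of these other cells in the results below was not tested.

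The sequences below show chosen examples of start sites of marked and unmarked members. Each has 300 bases from 250 before to 49 after an annotated start, 5′ to 3′ on the strand of the gene, on GRCm38. The CpG dinucleotides are in capitals, since the CpG content of marked and unmarked members is compared below. Gata2 was the member with both marks in all replicates. Its last start is the one most often covered by peaks, and its second start had H3K27ac in all 3 lists. Tbx3 and Sox4, chosen after their values were seen, carried H3K27ac in all 3 lists. Sox7 and Pax4 held the most and the fewest CpG dinucleotides among the members without a peak in any list. The last sequence is a region upstream of Tbx3 that was covered by both marks in at least 2 replicates each, shown on the plus strand.
Gata2, last start, chr6:88204195-88204494, plus strand: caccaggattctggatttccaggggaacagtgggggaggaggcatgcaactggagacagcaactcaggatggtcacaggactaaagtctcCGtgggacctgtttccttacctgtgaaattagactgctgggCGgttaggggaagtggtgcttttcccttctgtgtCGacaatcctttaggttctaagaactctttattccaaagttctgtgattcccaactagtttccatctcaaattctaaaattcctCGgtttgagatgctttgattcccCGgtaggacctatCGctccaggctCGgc
Gata2, second start, chr6:88198084-88198383, plus strand: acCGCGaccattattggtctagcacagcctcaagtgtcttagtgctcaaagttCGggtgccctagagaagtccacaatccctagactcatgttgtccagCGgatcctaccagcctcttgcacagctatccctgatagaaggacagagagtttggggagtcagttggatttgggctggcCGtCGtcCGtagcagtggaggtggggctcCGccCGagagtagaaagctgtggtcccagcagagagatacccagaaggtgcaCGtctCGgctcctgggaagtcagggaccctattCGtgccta
Tbx3, chr5:119670419-119670718, plus strand: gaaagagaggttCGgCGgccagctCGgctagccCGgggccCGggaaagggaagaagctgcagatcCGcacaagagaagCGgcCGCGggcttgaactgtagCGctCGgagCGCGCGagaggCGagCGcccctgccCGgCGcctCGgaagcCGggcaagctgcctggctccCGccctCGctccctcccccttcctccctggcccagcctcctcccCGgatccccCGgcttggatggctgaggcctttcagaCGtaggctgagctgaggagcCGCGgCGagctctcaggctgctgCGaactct
Sox4, chr13:28953664-28953963, minus strand: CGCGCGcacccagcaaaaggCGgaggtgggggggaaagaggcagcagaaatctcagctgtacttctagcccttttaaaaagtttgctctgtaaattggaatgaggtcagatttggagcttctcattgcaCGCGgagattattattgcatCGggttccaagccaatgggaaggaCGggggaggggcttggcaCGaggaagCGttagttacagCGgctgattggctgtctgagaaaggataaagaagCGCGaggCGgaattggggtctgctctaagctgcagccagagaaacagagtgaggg
Sox7, chr14:63943423-63943722, plus strand: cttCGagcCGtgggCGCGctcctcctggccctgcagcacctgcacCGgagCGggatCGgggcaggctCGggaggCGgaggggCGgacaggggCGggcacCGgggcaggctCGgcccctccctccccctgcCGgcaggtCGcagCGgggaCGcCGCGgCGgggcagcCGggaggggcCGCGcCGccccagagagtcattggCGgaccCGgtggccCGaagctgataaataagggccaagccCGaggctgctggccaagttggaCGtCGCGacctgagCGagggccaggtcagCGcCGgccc
Pax4, chr6:28449304-28449603, minus strand: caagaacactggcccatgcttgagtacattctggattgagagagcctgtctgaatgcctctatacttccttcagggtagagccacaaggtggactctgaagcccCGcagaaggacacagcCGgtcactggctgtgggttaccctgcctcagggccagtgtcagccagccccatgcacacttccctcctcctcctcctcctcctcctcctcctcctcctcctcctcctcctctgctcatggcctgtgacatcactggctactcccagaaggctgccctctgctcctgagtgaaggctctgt
Tbx3 upstream region, chr5:119669077-119669375, plus strand: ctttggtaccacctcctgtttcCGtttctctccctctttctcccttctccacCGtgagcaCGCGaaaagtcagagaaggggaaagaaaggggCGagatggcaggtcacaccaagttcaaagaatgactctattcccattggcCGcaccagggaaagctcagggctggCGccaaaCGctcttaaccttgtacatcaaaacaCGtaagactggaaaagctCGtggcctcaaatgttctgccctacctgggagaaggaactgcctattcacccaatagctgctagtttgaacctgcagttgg

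By the rule of 2 lists, 29 of 47 members carried neither mark at their promoters, and 20 had no promoter peak in any replicate list. H3K27ac was called at 12 of 47 members, where 55.0% of all protein-coding genes had it. H3K4me1 was called at 14 members, against 46.9% of all genes. Both marks were present at 8 members (Pax8, Gata2, Gata4, Sox5, Sox6, Tbx3, Tbx15 and Tbx18), or 17.0%, against 42.2% of all genes. H3K27ac alone was found at 4 members (Gata6, Sox4, Sox12 and Sox13), or 8.51%, against 12.8%. H3K4me1 alone was found at 6 members (Gata3, Sox2, Sox11, Sox21, Tbx1 and Tbx6), or 12.8%, against 4.69%. Those with neither mark were 61.7%, against 40.3% of all genes. Single lists weighed on these counts. When 1 list was left out and both others had to have the peak, H3K27ac was called at 6 members without replicate 3 (50.3% of all genes). H3K4me1 was then called at 4 members without replicate 1 (34.5%) and at 4 without replicate 2 (35.8%). The classes moved too, with shares of all genes not counted. H3K4me1 alone was left at 0 members without H3K4me1 replicate 1. Without H3K4me1 replicate 2, both marks were left at 2 members and H3K27ac alone rose to 10.

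Of the 9 Pax genes, 8 carried neither mark and the exception was Pax8. Of the 6 Gata genes, 2 carried both marks, Gata6 H3K27ac alone, Gata3 H3K4me1 alone, and Gata1 and Gata5 neither. Among the 19 Sox genes there were 2 with both marks, 3 with H3K27ac alone, 3 with H3K4me1 alone and 11 with neither. Among the 13 Tbx genes, 3 carried both marks, 2 H3K4me1 alone and 8 neither. These are counts of few genes, and no test between families was made.

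The number of members with a promoter peak varied between lists. H3K27ac lists 1, 2 and 3 had 11, 9 and 13 such members, or 11.0 ± 2.0 (mean ± SD, n = 3). H3K4me1 lists had 16, 12 and 10, or 12.7 ± 3.06 (mean ± SD, n = 3). The ranges of both marks overlapped. H3K4me1 lists 1 and 2 were called against the same IgG library. The difference in count (H3K27ac minus H3K4me1) was -5 for lists called against IgG replicate 2 and 3 for those against IgG replicate 3. Over all protein-coding genes the counts were 12136 ± 267 for H3K27ac and 10108 ± 519 for H3K4me1.

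**Figure D1:**
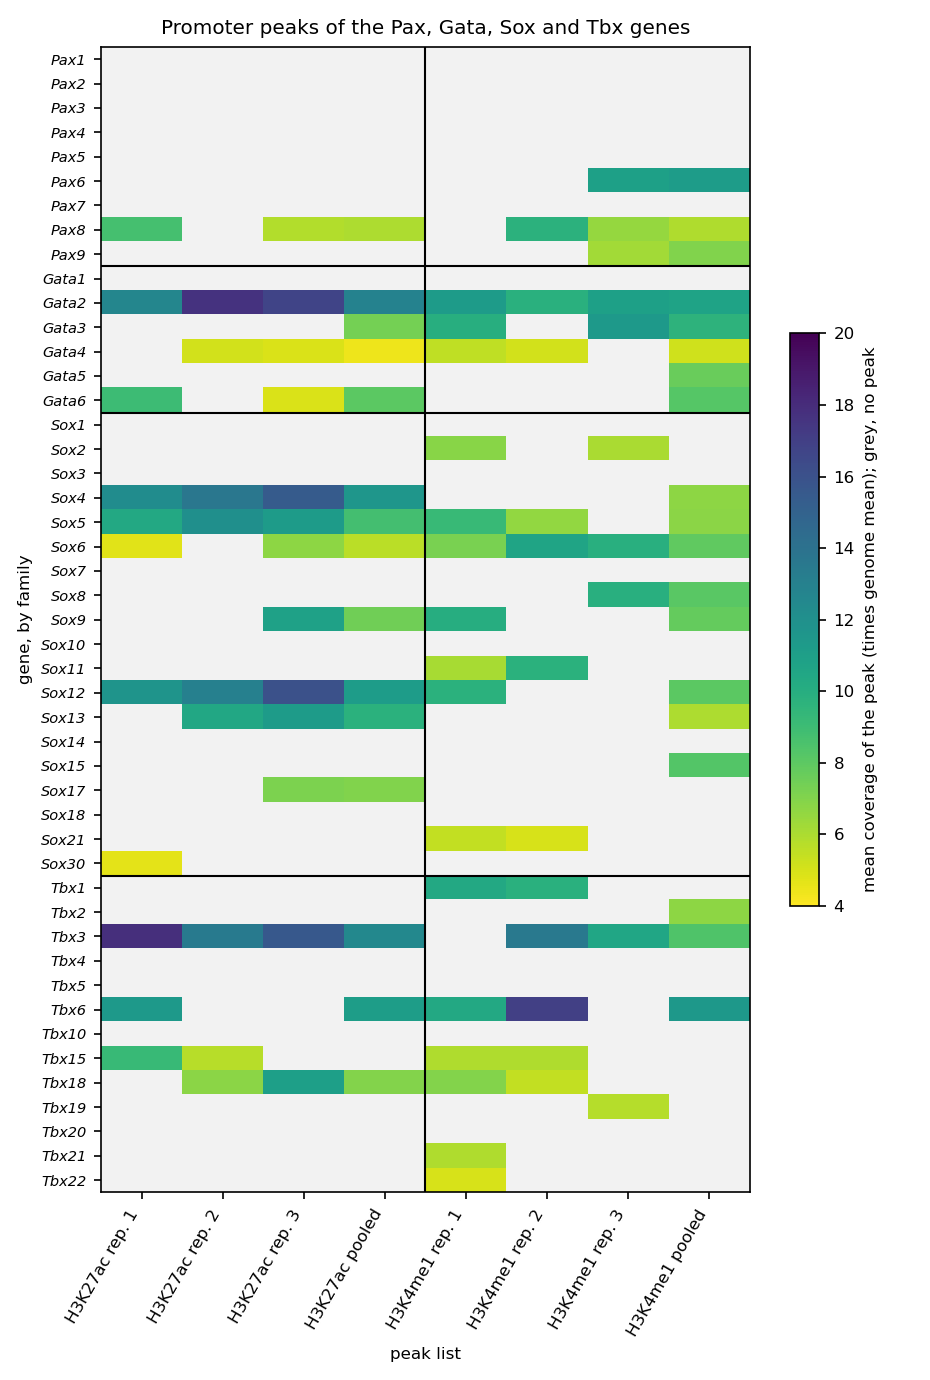
The strongest promoter peak of each of the 47 genes (rows, by family) in each of the 8 lists (columns) is coloured by its mean coverage relative to the genome mean, and grey cells had no promoter peak. Gata2 was the only gene with a peak in all 8 lists, and Gata2, Sox4, Sox5, Sox12 and Tbx3 had H3K27ac in all 3 replicate lists.

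H3K27ac was found in all 3 replicate lists at 5 members, Gata2, Sox4, Sox5, Sox12 and Tbx3, and at 47.1% of all genes. The same 5 genes were left when peaks with a −log10 p-value under 1.3 were dropped and 2 of 3 lists were asked for (41.5% of all genes). H3K4me1 was found in all 3 lists at 2 members, Gata2 and Sox6, against 31.7% of all genes. Under that filter on the p-value H3K4me1 was called at Sox6 and Tbx3 (15.6% of all genes) and no longer at Gata2. Without it, Gata2 was the 1 member with both marks in all 6 replicate lists, against 27.8%. At the other end, 20 members had no promoter peak in any of the 6 replicate lists (31.4% of all genes), and 17 had none in any of the 8 lists (30.0%). Those 17 were Pax1, Pax2, Pax3, Pax4, Pax5, Pax7, Gata1, Sox1, Sox3, Sox7, Sox10, Sox14, Sox18, Tbx4, Tbx5, Tbx10 and Tbx20. They include the neural factors Sox1 and Sox3, the muscle progenitor factors Pax3 and Pax7, the B cell factor Pax5, the erythroid factor Gata1, the glial factor Sox10 and the endothelial factors Sox7 and Sox18. Gata5, Sox15 and Tbx2 had a promoter peak in the pooled H3K4me1 list only. The other 9 members with neither mark had a peak of a mark in 1 replicate list. H3K27ac was in 1 list at Sox17 and Sox30, H3K4me1 in 1 list at Pax6, Pax9, Sox8, Tbx19, Tbx21 and Tbx22, and each mark in 1 list at Sox9, the cartilage and gonad factor. In the pooled lists, 15 members had H3K27ac (57.1% of all genes) and 19 had H3K4me1 (58.2%). All 4 members with H3K27ac alone (Gata6, Sox4, Sox12 and Sox13) had a promoter peak in the pooled H3K4me1 list, as had 70.3% of all 2812 genes of that class. Of the 6 members with H3K4me1 alone, Gata3 and Tbx6 had one in the pooled H3K27ac list, against 31.5% of the class.

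Gata2, a zinc finger factor of blood progenitors and of the uterus (chr6:88193891-88207032, plus strand), had H3K27ac at several starts and H3K4me1 in all 3 lists at the last one. Its strongest H3K27ac promoter peaks had a strength of 12.7, 17.7 and 16.7 in replicates 1, 2 and 3, where the median over all genes with such a peak was 11.4 to 12.4. In replicate 1 a peak of 7473 bp ran from -482 to 6990 bp relative to the farthest-upstream start. In replicates 2 and 3 the strongest peaks lay at 2326 to 4579 bp and 1638 to 4744 bp and covered the second start, 4443 bp downstream. No H3K4me1 peak of a replicate lay within 1 kb of that second start. Instead, H3K4me1 was called in all 3 replicates at the last start, 10554 bp downstream, with strengths of 11.2, 9.84 and 10.9. H3K27ac was also within 1 kb of that last start in 2 lists, with strengths of 10.4 in replicate 2 and 10.95 in replicate 3, so that both marks met there. The covered share of the locus, which is the gene and 25 kb either side, was 12.2%, 5.72% and 7.30% for H3K27ac and 1.62%, 1.97% and 4.49% for H3K4me1. The lowest H3K27ac value was above the highest H3K4me1 value.

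Tbx3 had the longest single H3K27ac peak of the members in each H3K27ac list (chr5:119670669-119684724, plus strand). H3K27ac covered the whole of a 2001 bp promoter window in all 3 lists. The longest peak was 8146 bp in replicate 1, 13509 bp in replicate 2 and 8747 bp in replicate 3, and 13640 bp in the pooled list, where it ran from -4940 to 8699 bp. Promoter peaks reached strengths of 17.8, 13.5 and 15.6. H3K4me1 covered at most 161 bp of any promoter window in a replicate, and its 2 promoter calls rested on different starts. Replicate 3 had a peak at -888 to -728 bp and replicate 2 at 5664 to 6419 bp, and replicate 1 had none within a window. Upstream of the windows, H3K4me1 lay at -3137 to -1271 bp in replicate 1 and at -3435 to -1294 bp in replicate 2, mostly over sequence that also had H3K27ac peaks, such as the one that began at -3079 bp in replicate 2. Of 2784 bp with H3K4me1 in at least 2 lists across the locus, 2253 bp had H3K27ac in at least 2 lists too. The covered share of the locus was 21.9%, 25.8% and 24.8% for H3K27ac and 4.00%, 10.1% and 2.86% for H3K4me1. The mean for H3K27ac, 24.2% ± 2.04 (SD, n = 3), stood at the 96.5th percentile of all genes, and that for H3K4me1, 5.64% ± 3.87, at the 59.1st. No other protein-coding gene lay in this locus.

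The neighbour of Tbx3 in the genome, Tbx5, is a cardiac and forelimb factor whose gene lies 147943 bp away. It had no promoter peak in any of the 8 lists. Its locus was covered to 1.57%, 0.165% and 0% by H3K27ac and to 1.04%, 1.34% and 0% by H3K4me1. The pair of Tbx2 and Tbx4 on chromosome 11, which are 44473 bp apart, had no promoter peak in a replicate list. Tbx4 had no covered base in its locus in any replicate list, and 1.42% in the pooled H3K4me1 list. At Tbx2 the pooled H3K4me1 list had a peak at the promoter and another of 3638 bp at 8879 to 12516 bp, and covered 6.85% of the locus.

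Sox4, a SoxC factor of progenitor cells (chr13:28948919-28953713, minus strand), has 1 annotated start, which H3K27ac covered in all 3 lists with strengths of 12.2, 13.6 and 15.4. In replicates 1 and 2 the peaks ran from the start across the gene, to 5829 and 5800 bp. In replicate 3 the peak at the start ended inside the gene, at 2329 bp, and H3K27ac covered 66.2% of the gene body. No H3K4me1 peak of a replicate lay in its promoter window, but the pooled H3K4me1 list had one at -935 to 171 bp, with a strength of 6.74. H3K4me1 of the replicates was found beyond the end of the gene, for example at 5402 to 5875 bp in replicate 1, and upstream, at -6139 to -5780 bp in the same list. The covered share of the locus was 13.4%, 15.0% and 9.44% for H3K27ac and 1.52%, 2.46% and 1.34% for H3K4me1, without overlap. Sox12, another SoxC gene (chr2:152393611-152398063, minus strand), had H3K27ac strengths of 11.7, 13.0 and 16.02 at its promoter and H3K4me1 in replicate 1 and the pooled list. Its locus was covered to 21.6%, 17.1% and 14.4% by H3K27ac and to 2.84%, 2.11% and 2.68% by H3K4me1. Between 35.5% and 58.9% of that H3K27ac coverage lay over Zcchc3, Nrsn2 and 6820408C15Rik, its neighbours. Sox11, the other member of the SoxC group, did not share this pattern: it had no H3K27ac promoter peak, and H3K4me1 peaks with strengths of 6.12 and 9.79 in replicates 1 and 2.

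**Figure D2:**
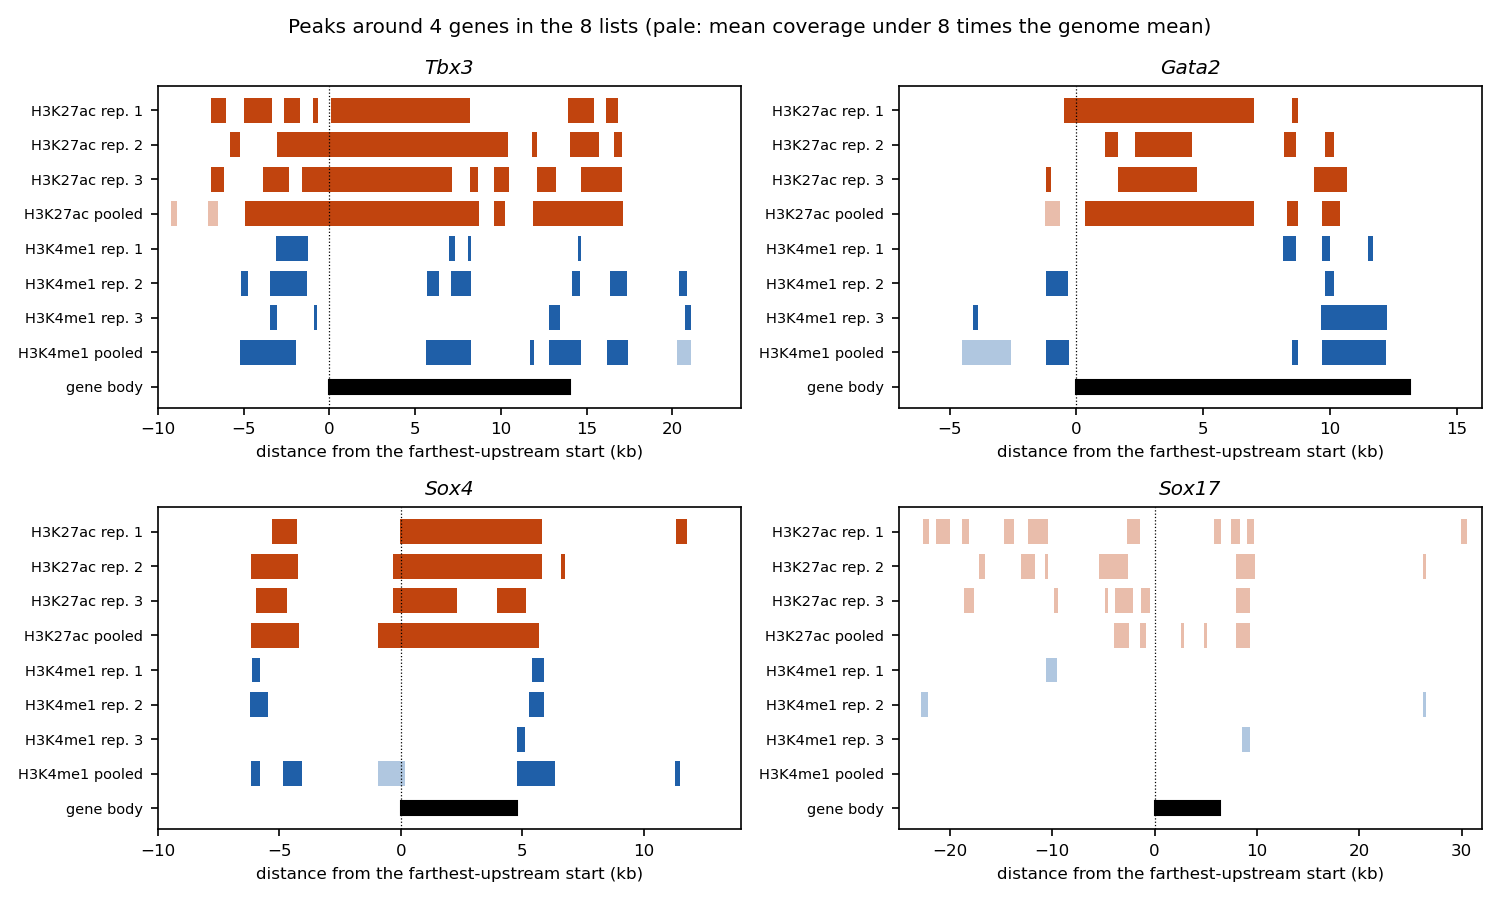
Peaks of the 8 lists (rows) are drawn as boxes against the distance from the farthest-upstream start in kb for Tbx3, Gata2, Sox4 and Sox17, with the gene body in black and weak peaks, under 8 times the genome mean, in pale colour. The longest H3K27ac peak (orange) over the 8 lists spans 13640 bp at Tbx3, 7473 bp at Gata2 and 6618 bp at Sox4, the longest H3K4me1 peak (blue) 3258, 2631 and 1544 bp, and every peak at Sox17 is pale.

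The SoxD genes Sox5 and Sox6, which cooperate with SOX9 in cartilage, are long genes with 12 and 13 annotated starts. At the farthest-upstream start of Sox5 (chr6:143828425-144781977, minus strand), H3K27ac was found in all 3 lists, with strengths of 10.4, 12.0 and 11.2, and H3K4me1 in replicate 1 and the pooled list. Both marks in 2 lists each were found at internal starts, 572409 to 572525 bp downstream. Sox6 (chr7:115470872-116038796, minus strand) showed the opposite order. At its farthest-upstream start H3K4me1 was called in all 3 lists, with strengths of 7.19, 7.42 and 9.93, and H3K27ac in replicate 1 alone, with a strength of 4.75. Both marks were called within 1 kb of an internal start 440900 bp downstream, where the H3K27ac peaks of replicates 1 and 3 did not overlap. The locus of Sox5 was covered to 7.09%, 3.33% and 3.05% by H3K27ac and to 6.05%, 6.74% and 6.36% by H3K4me1, which overlap. For Sox6 the values were 5.17%, 2.52% and 2.33% against 3.87%, 4.92% and 5.07%, which overlap too. Sox13, the remaining SoxD gene, had H3K27ac at its promoter in replicates 2 and 3, with strengths of 10.4 and 11.2, and no H3K4me1 call there in a replicate, while the pooled H3K4me1 list had a peak at an internal start.

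The other members with both marks, Pax8, Gata4, Tbx15 and Tbx18, had both called at internal starts. Such a call asks for peaks within 1 kb of a start, and the peaks need not overlap. In the loci of Pax8 and Tbx15, 0 bp were covered by both marks in at least 2 lists each. At Gata4 such sequence lay outside the gene, and at Tbx18 outside the promoter windows. Pax8, the marker of oviduct secretory cells (chr2:24420560-24475599, minus strand), had both marks at a start 29699 bp downstream of its farthest-upstream one, with H3K27ac strengths of 8.70 and 5.84 in replicates 1 and 3 and H3K4me1 strengths of 9.70 and 6.56 in replicates 2 and 3. No replicate list had a peak within 1 kb of its farthest-upstream start, but the pooled H3K27ac list had a pair there, at -1619 to -231 bp and 530 to 949 bp, with strengths of 5.99 and 5.86. H3K4me1 covered 8.27%, 9.35% and 4.51% of its locus in replicates 1, 2 and 3. Gata4, a factor of heart and gonad (chr14:63198922-63271692, minus strand), had both marks at a pair of starts 26421 and 26444 bp downstream. Its H3K27ac strengths there, 5.07 and 4.88 in replicates 2 and 3, were close to the lowest in those lists. Tbx15, a factor of skeletal and fat development, had both marks in replicates 1 and 2 at its start 13379 bp downstream, with H3K27ac strengths of 9.196 and 5.69 there, and no pooled list had a promoter peak. Tbx18 had both marks at its start 763 bp downstream, H3K27ac in replicates 2 and 3, with strengths of 6.75 and 11.0, and H3K4me1 in replicates 1 and 2. Its locus was covered to 5.24%, 6.31% and 0.255% by H3K27ac, so that replicate 3 stood far below the other two, and to 6.05%, 9.55% and 4.06% by H3K4me1.

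Counts at single starts were lower. At the farthest-upstream start, H3K27ac was called at 6 members (Gata2, Sox4, Sox5, Sox12, Sox13 and Tbx3), against 50.5% of all genes. H3K4me1 was called there at 7 (Gata3, Sox2, Sox6, Sox11, Sox21, Tbx1 and Tbx6), against 37.5%. No member was on both lists, whereas 33.0% of all genes carried both marks at that start. Neither mark was called there at 34 members, against 45.0%. Both marks in at least 2 lists each were called within 1 kb of 1 and the same start in 7 members, against 40.1% of all genes. These were Pax8, Gata2, Gata4, Sox5, Sox6, Tbx15 and Tbx18, and the peaks need not overlap. Counts were also set out by the number of starts. H3K27ac was called at 1 of 16 members with 1 start, 4 of 20 with 2 to 4 starts and 7 of 11 with 5 or more, and at 25.03%, 48.3% and 81.6% of all genes with so many starts. H3K4me1 was called at 4 of 16, 4 of 20 and 6 of 11, and at 20.7%, 41.3% and 69.8% of all genes.

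Gata6, a paralogue of Gata4, is listed with H3K27ac alone, but its 2 lists had peaks at different starts. Replicate 1 had a peak with a strength of 9.01 at 1612 to 2089 bp and replicate 3 one of 4.88 at 6858 to 7628 bp. Its locus held no covered base in replicate 2 of either mark, and 4.16% and 2.12% in replicates 1 and 3 of H3K27ac. The pooled H3K4me1 list had a peak at -701 to -385 bp. Only 11 members had H3K27ac in 2 lists at 1 and the same start, against 54.4% of all genes, and Gata6 was the one that dropped out. The same count for H3K4me1 was 13, against 46.1%, and Tbx3 dropped out.

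Of the 6 members with H3K4me1 alone, none had H3K4me1 in all 3 lists. In 4 of them (Sox11, Sox21, Tbx1 and Tbx6) the peaks were in replicates 1 and 2 and not 3, as in 44.0% of all 1029 genes of this class. Replicates 1 and 2 of H3K4me1 were called against the same IgG library, and the part of that library was not tested. In 4 of them (Sox2, Sox11, Sox21 and Tbx1) the pooled H3K4me1 list had no promoter peak, where this was so for 21.3% of the class. In Gata3, a factor of T cells and luminal epithelium, the H3K4me1 strengths at the farthest-upstream start were 9.99 and 10.5 in replicates 1 and 3. Sox2, a pluripotency and neural factor, had 6.87 and 6.01 in the same replicates, and Sox21 had 5.46 and 4.96 in replicates 1 and 2. The peaks at Tbx6 lay at the edge of its window, at -1276 to -846 bp in replicate 1 and -1290 to -838 bp in replicate 2, and covered at most 163 bp of it. H3K27ac covered 225 bp of the same window in replicate 1, with a strength of 11.4, and was there in the pooled list too, so that Tbx6 fell short of H3K27ac by 1 list.

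Across the loci, H3K27ac covered on average 4.27% ± 0.79 (SD over 3 lists) of a member locus and H3K4me1 2.46% ± 0.46. Over all protein-coding genes the means were 7.01% ± 0.87 and 6.50% ± 0.31. The medians over members were lower, 0.95% ± 0.68 and 1.45% ± 0.22, against 4.55% ± 0.70 and 3.87% ± 0.43 over all genes, so that the order of the marks in the members turned between mean and median. The medians of the members differed by less than the SD of H3K27ac. By family, the mean H3K27ac coverage was 1.58% ± 0.10 for Pax, 2.58% ± 0.88 for Gata, 5.47% ± 1.17 for Sox and 5.15% ± 0.94 for Tbx. H3K4me1 covered 2.06% ± 0.11, 1.52% ± 0.57, 2.95% ± 0.58 and 2.45% ± 0.80 of them. A few loci carried these means, such as Pax4, Tbx3 and Tbx6. The family medians for H3K27ac were 0.14% ± 0.13, 1.57% ± 0.16, 2.88% ± 0.79 and 0.75% ± 0.71 for Pax, Gata, Sox and Tbx.

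The covered share was compared between marks gene by gene. In 9 of 47 members all 3 H3K27ac lists were above all 3 H3K4me1 lists, a share close to the 17.3% of all genes. These were Pax4, Gata2, Sox4, Sox12, Sox15, Sox17, Sox18, Tbx3 and Tbx6. In 3 members the order was the reverse (Pax6, Sox8 and Tbx2), against 12.0%. This count was 9 without H3K4me1 replicate 3 (18.0% of all genes), 6 without H3K27ac replicate 1 (19.0%) and 6 by the replicate block of same-numbered lists (19.1%). When loci had no flanks, H3K27ac stood above in 4 members (11.2%) and H3K4me1 in 1 (10.7%). The lists overlapped in the remaining 35, of which Sox1 and Tbx4 had no covered base in any replicate list, as had 8.54% of all genes. An exact permutation test of 3 lists against 3, two-sided, cannot go below p = 0.1. The smallest p adjusted by the Benjamini-Hochberg method over all 21938 genes was 0.342, so no gene passed. These p-values measure the spread between lists, which may be technical.

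**Figure D3:**
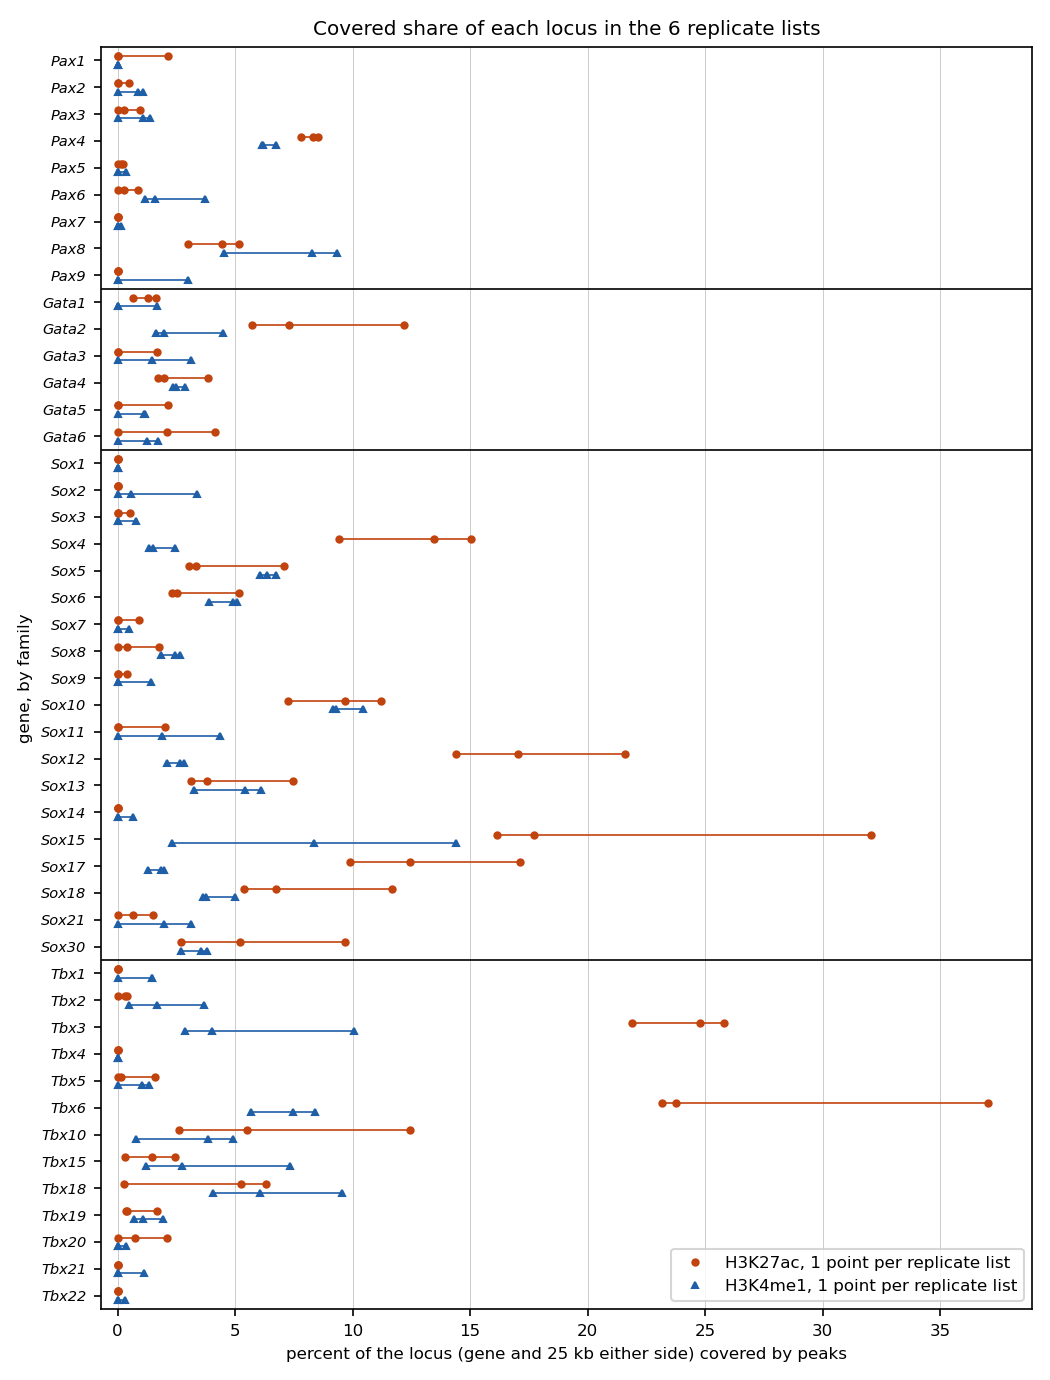
The percent of each locus (gene and 25 kb either side) covered by peaks is plotted for the 3 H3K27ac lists (orange circles) and the 3 H3K4me1 lists (blue triangles) of each gene, with a line over their range. All 3 H3K27ac lists lie above all 3 H3K4me1 lists at 9 loci (Pax4, Gata2, Sox4, Sox12, Sox15, Sox17, Sox18, Tbx3 and Tbx6), against 17.3% of all genes. With other protein-coding genes left out, 5 of them keep this order (Gata2, Sox4, Sox12, Sox17 and Tbx3). Most Pax loci lie near 0%.

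Part of this coverage belonged to neighbours. Tbx6 had the highest H3K27ac coverage of all members, 37.1%, 23.2% and 23.8%, but 94.1% to 100% of it lay over or within 1 kb of other protein-coding genes, among them Aldoa, Mapk3, Ppp4c and Ypel3. H3K4me1 covered 5.69%, 8.39% and 7.47% of the Tbx6 locus. At Sox15, H3K27ac covered 17.7%, 32.1% and 16.1% and H3K4me1 14.4%, 8.36% and 2.32%, and 97.2% to 100% of the H3K27ac coverage lay over neighbours, among them Eif4a1, Senp3, Mpdu1, Fxr2 and Cd68. Sox10 had the highest mean H3K4me1 coverage of the members, 9.17%, 9.28% and 10.45%, with 7.23%, 9.70% and 11.2% for H3K27ac. All of both lay over or within 1 kb of its neighbours, among them Micall1 and Polr2f. At Pax4, beside Arf5, Gcc1, Snd1 and Fscn3, 82.7% to 100% of the H3K27ac coverage lay over neighbours. Other protein-coding genes and 1 kb around them were then left out, a choice made after the data were seen. H3K27ac stood above H3K4me1 in 5 members (Gata2, Sox4, Sox12, Sox17 and Tbx3), close to the 11.1% of 21404 genes with sequence left. H3K4me1 then stood above in 4 (Pax6, Sox8, Sox18 and Tbx2), against 12.0%. All 5 and 3 of the 4 were among those named for the whole locus, and Sox18 changed sides. The mean H3K27ac coverage was then 0.80% ± 0.11 for Pax, 2.52% ± 1.06 for Gata and 3.78% ± 1.11 for Sox. For Tbx it was 3.42%, from 3.58%, 4.64% and 2.05% in replicates 1, 2 and 3.

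The covered share at Sox17 came from peaks of a strength usual for their lists. H3K27ac covered 17.1%, 12.4% and 9.88% of its locus (chr1:4490931-4497354, minus strand) and H3K4me1 1.96%, 1.84% and 1.31%. Its promoter had a peak in 1 of 3 H3K27ac lists, with a strength of 7.16 in replicate 3, in the pooled H3K27ac list and in no H3K4me1 list. The strongest peak anywhere in the locus had 5.66, 5.47 and 7.16 times the genome mean in H3K27ac replicates 1, 2 and 3, and their medians were 4.48, 5.24 and 5.50. The medians over all peaks of these lists were 4.52, 5.51 and 5.57, and those over genes with a promoter peak were 11.4 to 12.4. The lowest values in these lists were 4.03, 4.80 and 4.88. The pooled H3K27ac list covered 7.01% of the locus, less than each replicate list, and the pooled H3K4me1 list had no peak in it. At the 3 loci with more H3K4me1, values were low. The highest in a replicate list was 3.72% for Pax6, 2.66% for Sox8 and 3.67% for Tbx2, and the pooled H3K4me1 list covered 1.65%, 4.28% and 6.85%.

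Sequence covered by at least 2 replicates of H3K27ac and at least 2 of H3K4me1 outside every promoter window was found at 9 members, as 42 regions, of which 41 lay outside other protein-coding genes. Such a region was found at 47.1% of all genes. No minimum length was asked for, and the shortest at Sox5, Sox6, Tbx3 and Sox13 were 2, 62, 63 and 65 bp. Introns of Sox5 held 18 of them and introns of Sox6 held 9, and these were the only 2 member loci of at least 500 kb, a length at which 77.1% of 284 genes had a region. Of the 45 shorter member loci, 7 had a region, against 46.7% of all genes with shorter loci. Tbx3 had 6, of which 3 lay within 3435 bp upstream of the gene, 1 in an intron, 1 in an exon and 1 beyond the gene. The upstream region shown above, at -1592 to -1294 bp, is the nearest to the start. Sox4, Sox13 and Sox30 had 2 each and Sox12, Tbx18 and Sox10 had 1 each, that of Sox10 over Micall1. No Pax or Gata locus held such a region.

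The start sites of unmarked members were rich in CpG. In 300 bases at the farthest-upstream start, the 29 members with neither mark had a median of 17 CpG dinucleotides, where all 8838 genes of that class had a median of 3. Of those 29 members, 21 were at or above 11, the median of all protein-coding genes, as were 19.3% of all genes of the class. The 12 members with H3K27ac at any start had a median of 14, and all genes with H3K27ac had 19, but 6 of the 12 did not carry the mark at the start where CpG was counted. The 6 members with H3K27ac at that start had a median of 24, against 20 over all such genes, so the order turned. The 34 members with neither mark there had a median of 15, against 4. The 17 members without a peak in any list ranged from 2 at Pax4 and 4 at Tbx10 to 26 at Sox14 and Tbx20 and 34 at Sox7. By family the medians were 14 for Pax, 13 for Gata, 21 for Sox and 15 for Tbx. The windows printed above held 29 at Tbx3, 14 at Sox4, 12 at the second and 7 at the last start of Gata2.

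**Figure D4:**
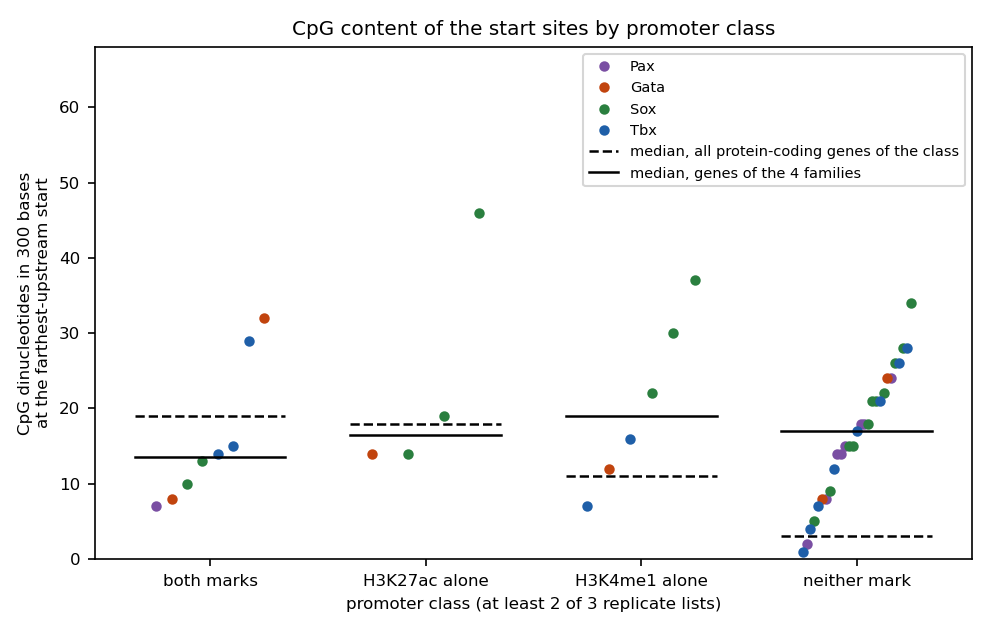
Each point is 1 gene of the 4 families, with the number of CpG dinucleotides in 300 bases at its farthest-upstream start on the y axis and its promoter class on the x axis. Solid lines mark the median of the members and dashed lines that of all protein-coding genes of the class, and in the class with neither mark these are 17 and 3.

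Short motifs were counted on both strands of the same 300-base windows. A match is a description of the letters and not a binding site. The letters TATAAA were in 1 member window (Tbx6) and in 12.6% of all windows. AGATAA, read by GATA factors, was in 3 (Gata4, Tbx19 and Tbx22) and in 10.2%. ACAAAG and ACAATG, read by Sox factors, were in 5 and 3 and in 17.8% and 10.7%. AGGTGTG, read by T-box factors, was in none of the 47 and in 6.11%, and GTCACGC, read by Pax factors, in 1 (Tbx5) and in 2.53%. The windows and the region printed above held none of these 6 motifs.

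Partners and relatives of the 4 families were counted in the same way. From a list of 26 genes, 17 carried both marks (42.2% of all genes), 4 H3K4me1 alone (4.69%), 5 neither (40.3%) and 0 H3K27ac alone (12.8%). Among those with both marks were the GATA cofactors Zfpm1 and Zfpm2, the GATA-type repressor Trps1, the LIM adaptors Lmo4 and Ldb1, Eya1, Eya2, Eya3 and Eya4 and Dach1 of the Pax-Six-Eya network, and the lineage factors Lmo2, Six4 and Tcf21. The 5 with neither mark were Tal1, Eomes, Six2, Nkx2-5 and Hand1. The T-box genes under other names differed: Mga had both marks in all 6 lists, Tbr1 had H3K4me1 in all 3 lists and H3K27ac in 1, and Eomes had H3K4me1 in 1 list alone. No test was made between the lists.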

How the data were processed

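ChIC-Seq of H3K27ac, H3K4me1 and IgG (3 samples each) was analysed from 8 peak lists. Per the labels, cutadapt, Bowtie2, MACS2 and GRCm38.p5 were used. Trimming, mapping and filter settings were not given in the sources used here. Per the file headers, the authors called broad regions with MACS 2.2.7.1 (p 0.05 for strong and 0.1 for weak regions), scaling the larger library to the smaller. The deposited pileup is a coverage signal at IgG depth, the deposited fold enrichment is a ratio to the local background, and the deposited p-value is on the −log10 scale. The fold enrichment was not used for any result.

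Here, pileup was divided by the mean genome coverage of the scaled library. Start sites were taken from release 21 of the GENCODE mouse annotation, and sequences came from the RefSeq GRCm38 assembly. Genes were compared by presence of peaks and by covered bp, using Python 3.11.15, numpy 2.4.6 and pandas 2.3.3. Interval sums were tested on simulated data, and 0 of 800 differed from a count base by base. Exact permutation tests were run over the 20 assignments of 6 lists. Values are given in every list for members with a promoter peak in all 3 lists of a mark and for the 5 with the highest mean covered share per mark. Members singled out otherwise were chosen after their values were seen. The members and lists were chosen with earlier results of these data known. Alternatives covered the number of lists, windows, starts, peak filters, flanks, IgG library, pairing and each replicate left out.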

Additional observations from a re-analysis of the deposited data

How the results depend on the processing

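The count of 29 members with neither mark stayed within 1.5 times under all 16 alternatives, from 20 to 41. With 1 of 3 lists asked for, however, it was 20 of 47 (31.4% of all genes), no longer the larger part. Other counts moved, and 50 of 156 values differed from the reported one by more than 1.5 times or by more than the spread between lists; none of the differences between marks was called, and the cause was not tested. Asking for 1 of 3 lists gave 22 members with H3K4me1 and 11 with it alone. Asking for 3 of 3 gave 5 with H3K27ac (47.1% of all genes), 2 with H3K4me1 (31.7%), 1 with both marks (27.8%) and 1 with H3K4me1 alone. The pooled lists gave 13 with both marks and 2 with H3K27ac alone (Sox17 and Tbx18, neither of them among the 4 of the report). A window of 250 bp gave 6 with H3K27ac, 6 with H3K4me1 and 1 with both. Starts of protein-coding transcripts gave 4 with both, and 200 bp of covered window gave 5. No share of all genes was counted for these settings or the 250 bp window. Whether the members moved apart from all genes there was not tested. Keeping peaks from a −log10 p-value of 1.3 upward gave 5 with H3K27ac, 2 with H3K4me1, 1 with both, 1 with H3K4me1 alone, a promoter count difference (H3K27ac minus H3K4me1) of 3 in place of -1.67, and 1 locus with more H3K4me1. The farthest-upstream start alone, added after the data were seen, gave 6 with H3K27ac, 7 with H3K4me1 and 0 with both. Lists called against IgG replicate 2 alone gave a promoter count difference of -5, and those against IgG replicate 3 gave 3.

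Leaving out 1 replicate and asking for both others gave 6 to 12 members with H3K27ac (6 without H3K27ac replicate 3), 4 to 14 with H3K4me1 (4 without H3K4me1 replicate 1 or 2), 2 to 6 with both marks (2 without H3K4me1 replicate 2), 2 to 10 with H3K27ac alone (2 without H3K27ac replicate 3, 8 and 10 without H3K4me1 replicates 1 and 2), 0 to 10 with H3K4me1 alone (10 without H3K27ac replicate 3, 0 and 2 without H3K4me1 replicates 1 and 2), and a promoter count difference of -3 to 0. It gave 3 to 9 loci with more H3K4me1 (9 without H3K4me1 replicate 3, 6 without H3K27ac replicate 1) and 9 to 11 with more H3K27ac.

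The mean locus coverage difference, 1.81 percentage points in the report, was 3.62 without flanks, 2.60 with 10 kb, 0.899 with 50 kb, 2.48 with covered bp scaled by the total of the list, and 0.917 without other protein-coding genes, and was above 0 in each of its 16 alternatives. Without flanks 4 loci had more H3K27ac and 1 had more H3K4me1. Without other genes 5 had more H3K27ac. Peaks of at least 5 times the genome mean gave 5 loci with more H3K4me1. Same-numbered lists deviated together with correlations of -0.0808, 0.335 and 0.493 for replicates 1, 2 and 3. The lists of replicates 2 and 3 also shared an IgG library, so these values cannot tell whether equal numbers pair the samples. Lists with the same IgG library had 0.335 to 0.493 and the others -0.508 to 0.0733. The replicate block, by same-numbered pairs, gave 10 loci with more H3K27ac and 6 with more H3K4me1, a mean coverage difference of 1.81 and a promoter count difference of -1.67. The IgG depth of 3110985 to 3713369 fragments limits how weak a peak can be told from background, and a list without a peak does not show that a mark is absent.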
